A study of Homo sapiens with 6 samples.

Results

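The nuclear pore complex is the gate of the nuclear envelope. Its proteins, the nucleoporins, build a membrane-anchored scaffold of rings, a central channel filled with disordered phenylalanine-glycine (FG) repeats, filaments on the cytoplasmic face and a basket on the nuclear face. Importins and exportins carry proteins through the FG repeats under the direction of the small GTPase RAN, and mRNA leaves through the same channel. The genes described here are the protein-coding genes whose symbol is NUP followed by a digit, together with NDC1, POM121, POM121C, TPR, RANBP2, SEH1L, SEC13, AHCTF1, AAAS, RAE1, GLE1 and NUTF2. ELYS, also sought, is an alias of AHCTF1. This gave 35 of the 60605 gene identifiers in the table, of which 33 had enough reads to be tested.

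The cells were H69AR, an established doxorubicin-resistant derivative of the small cell lung cancer line NCI-H69. Cells at confluence received 70 nM Supinoxin or no drug, in medium with fetal bovine serum, and each group has 3 libraries (replicates 1 to 3). Supinoxin is a small molecule reported to act on DDX5, a DEAD-box RNA helicase, and the title of the series places its effect in mitochondrial respiration. The genotype label of both groups begins with WT and adds only the presence or absence of the drug, and neither the length of exposure nor a vehicle for the untreated cells is stated in the labels. The labels do not say that the 3 libraries of a group came from separate cultures, so p-values measure the spread between these libraries alone.

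Libraries held 30136963 to 39402804 counts, and levels are given as CPM (a gene's counts relative to the library's total, TMM-scaled), at which 1 CPM stands for 30.7 to 38.2 counts. The untreated libraries differed more among themselves than the Supinoxin libraries did: over the 33 tested genes the median coefficient of variation was 3.51% with Supinoxin and 14.0% without it. Untreated replicate 1 stood apart from untreated replicates 2 and 3, and across all genes its difference from them followed GC content (Spearman rho 0.58 over 15926 genes) and exonic length (rho -0.30). Of the cell type markers, the neuroendocrine factor NEUROD1 had 0 counts in all libraries together. The labels call the cells epithelial. Of the epithelial markers, KRT19 and CDH1 had 6 and 17 counts in all. KRT8 averaged 112 CPM with Supinoxin and 165 CPM without it, and KRT18 32.3 CPM with Supinoxin and 36.7 CPM without it. EPCAM averaged 1.22 CPM with Supinoxin and 10.3 CPM without it. Summed over the fixed lists, the 8 neuroendocrine markers reached 45.6 to 48.8 CPM with Supinoxin and 55.5 to 87.0 CPM without it, carried by DLL3, at means of 18.7 CPM with Supinoxin and 34.8 CPM without it, and INSM1, at 11.9 CPM with Supinoxin and 19.6 CPM without it. CHGB went the other way and averaged 9.28 CPM with Supinoxin and 4.31 CPM without it. The 6 non-neuroendocrine markers reached 1877 to 1912 CPM with Supinoxin and 1471 to 1813 CPM without it. Among them VIM averaged 1032 CPM with Supinoxin and 976 CPM without it, and ANXA1 343 CPM with Supinoxin and 394 CPM without it. CD44 averaged 397 CPM with Supinoxin and 220.3 CPM without it, YAP1 78.5 CPM with Supinoxin and 35.6 CPM without it, and REST 44.5 CPM with Supinoxin and 25.6 CPM without it. The 5 epithelial markers reached 138 to 150.1 CPM with Supinoxin and 167 to 289 CPM without it. The 6 fibroblast and endothelial markers reached 5088 to 6041 CPM with Supinoxin and 2249 to 3364 CPM without it. COL1A1 and COL3A1 carried that last sum, as DCN, LUM, PECAM1 and VWF had 12 to 39 counts each. The 6 leukocyte markers summed to 1.35 to 1.59 CPM with Supinoxin and 1.55 to 2.22 CPM without it, 2 of them at 0. The part of these markers in the results below was not tested. In bulk RNA, a shift in the mix of cells and a change in RNA per cell cannot be told apart.

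The pore genes did not move as one. With Supinoxin 11 of the 33 rose (33.3%) and 5 fell (15.2%) at an adjusted p under 0.05 in edgeR's quasi-likelihood test, while 17 did not pass. Among all 15947 genes tested, 23.4% were higher and 25.2% were lower. In this fit the share of pore genes that rose lay above the background and the share that fell lay below it. These differences in share were not tested. With a length and GC offset, described below, 11 of the 33 were lower, a share no longer below the background of 30.2% in that fit. Without the offset the median log2 fold change of the 33 genes was 0.23, against -0.00044 over all genes. The 11 that rose were POM121, POM121C, AHCTF1, NUP98, RANBP2, NUP42, TPR, NUP50, NUP153, NUP205 and NUP214, and the 5 that fell were NUTF2, NUP85, SEC13, NUP37 and NUP43. In 14 of the 33 every Supinoxin library lay above every untreated one and in 7 every Supinoxin library lay below (42.4% and 21.2%), against 31.3% and 31.1% of all genes. NUP160, NUP188, NUP155, AAAS and NDC1 had such separate groups without passing the test.

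Part of the count depended on single libraries, on length and on scaling. Leaving out any 1 Supinoxin library left 9 pore genes higher and 3 lower. Untreated replicate 1 was the lowest untreated library in 9 of the 11 genes that rose and the highest in 5 of the 5 that fell, and among the 17 that did not pass it was the lowest in 10 and the highest in 3. Without it 14 pore genes were higher and 6 lower, with a median of 0.11, against 26.5% and 27.4% of all genes. With each gene's exonic length and GC content entered as an offset 10 were higher and 11 lower, with a median of -0.11, against 26.7% and 30.2% of all genes. When libraries were scaled by their totals only, the median of all genes shifted by 0.14, and 14 pore genes were higher and 3 lower, against 27% and 19.7% of all genes. Over all 14 alternative settings, 9 genes were called higher every time (POM121, POM121C, AHCTF1, NUP98, RANBP2, NUP42, TPR, NUP50 and NUP153) and 3 were called lower every time (NUTF2, NUP85 and SEC13).

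**Figure D1:**
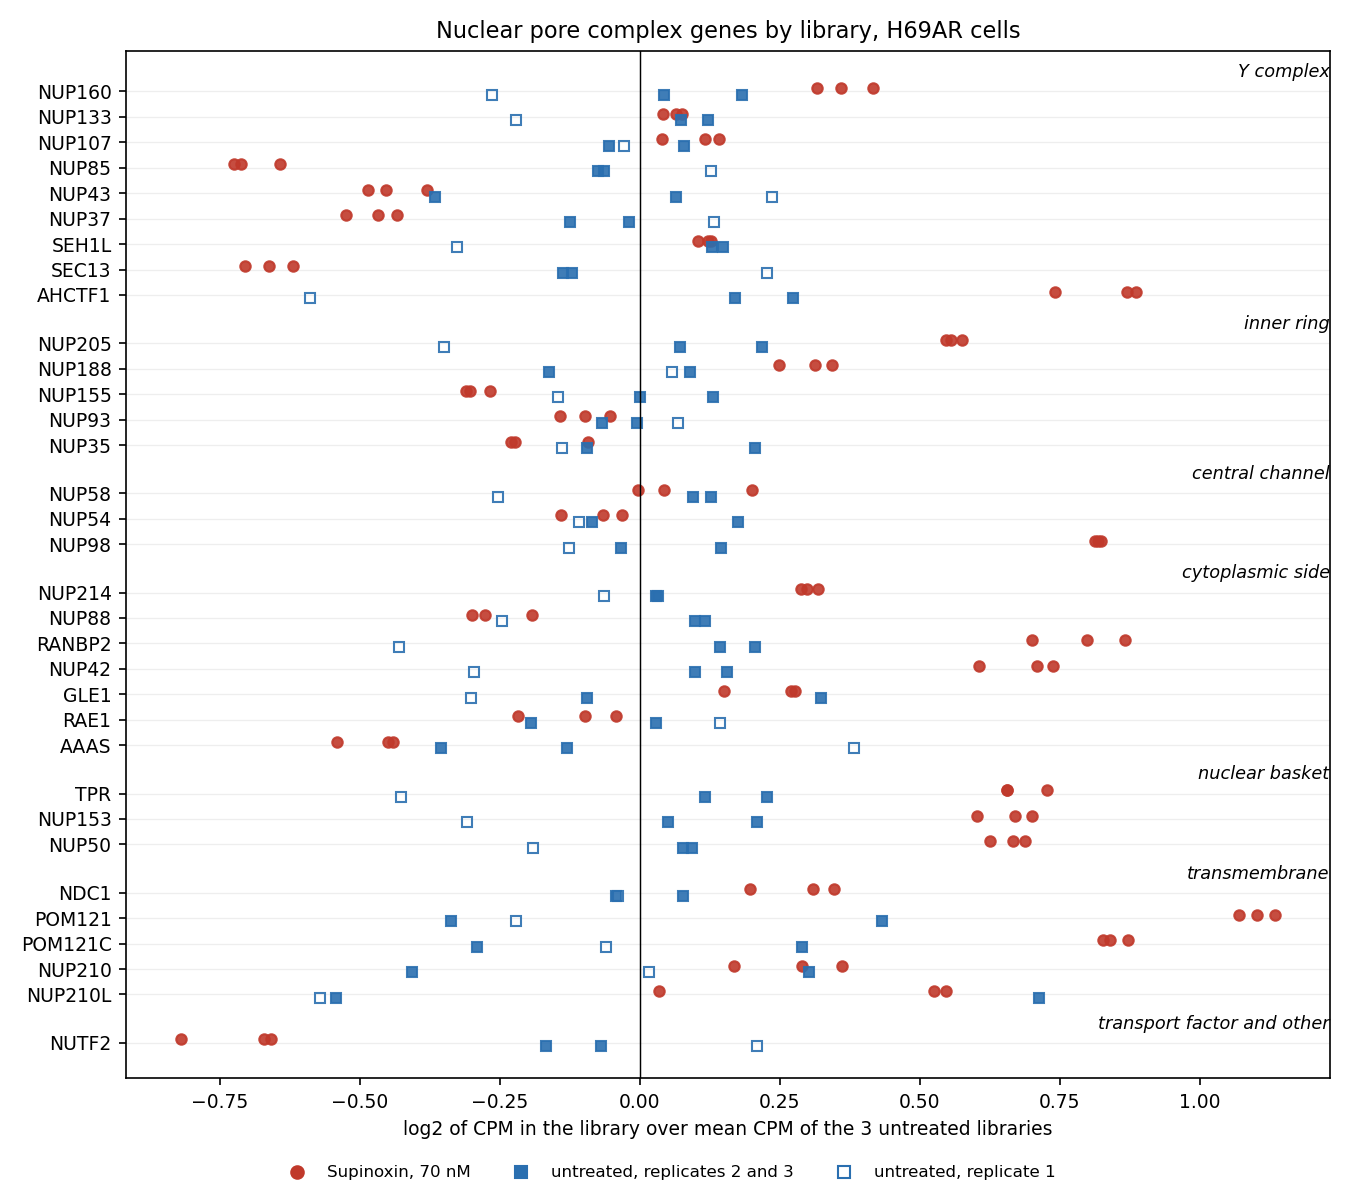
Level of the 33 tested nuclear pore genes in each library, as log2 of its CPM over the mean CPM of the 3 untreated libraries, by subcomplex; circles are Supinoxin libraries, filled squares untreated replicates 2 and 3, open squares untreated replicate 1. Supinoxin circles lie right of every untreated square in 14 genes and left of every one in 7.

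The membrane-spanning members held the gene with the largest rise. POM121, an FG nucleoporin anchored in the pore membrane and needed for pore assembly in interphase (ENSG00000196313, chr7:72879349-72951440, plus strand, GRCh38), had 258, 269.5 and 264 CPM with Supinoxin, against 105, 166 and 97.1 CPM without it. Its untreated replicate 2 was the highest of its group, yet all 3 Supinoxin libraries lay far above it. POM121 rose 2.15-fold (log2 fold change 1.10, SE 0.20, adjusted p = 0.00213). POM121C, its close paralogue (ENSG00000272391, chr7:75416786-75486299, minus strand), had 274, 276 and 283 CPM with Supinoxin, against 148, 189 and 126 CPM without it, again with no overlap between the groups. It rose 1.8-fold (log2 fold change 0.85, SE 0.16, adjusted p = 0.00269).

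Reads of the pair cannot be assigned with certainty. Of the 50-base windows in the transcripts of POM121, 62.6% also occurred in transcripts of other genes, 31% in POM121C, and for POM121C 48% were shared, 34.8% with POM121. Summed over both genes the level was 532, 546 and 546 CPM with Supinoxin, against 254, 354 and 223 CPM without it and the groups did not overlap in the sum either. Counts of the other genes that share windows were not added. Genes on the opposite strand cover 19% of the exonic bases of POM121, and no source used here gives the strand setting of the counting.

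The other 3 membrane genes did not pass. NDC1, which anchors aladin and other nucleoporins in the membrane, had 147, 136 and 150.4 CPM with Supinoxin, against 115, 125 and 115 CPM without it, with a log2 fold change of 0.29 (adjusted p = 0.075, edgeR). It passed with DESeq2, without untreated replicate 1 and with scaling by library totals (adjusted p 0.02 to 0.26 over the alternatives). NUP210, whose large domain lies in the lumen of the envelope, had 54.7, 59.5 and 62.5 CPM with Supinoxin, against 49.2, 60 and 36.7 CPM without it, and the groups overlapped. NUP210L, its relative known from testis, stood at 19 to 46 counts a library and passed only without untreated replicate 3 (log2 fold change 0.94).

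The promoters of the POM121 pair are near copies of each other. RefSeq (GRCh38.p14) gave 250 bases before the start of transcription for 32 of the 35 genes, with the first listed start taken for the 9 that have several, and AHCTF1, GLE1 and NUP43 had no entry. Aligned over these windows, POM121 and POM121C had 226 identical bases, 10 mismatches and 28 gap positions. Of 10 motifs sought on both strands, the core bound by ETS-family factors, CCGGAAG, was found in 13 of the 32 promoters (40.6%), against 15.1% of the 10026 promoters of tested protein-coding genes. It occurred in 4 of 10 promoters of genes that rose, 2 of 4 of genes that fell and 7 of 16 of genes that did not pass, so all 3 groups held it. Among the 4 are the near copies POM121 and POM121C. The 100 bases before the start are shown for the 6 called genes that hold the core, because they put both directions of change side by side; capitals mark CCGGAAG or its reverse complement CTTCCGG, and each stretch runs 5′ to 3′ along the gene.

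POM121: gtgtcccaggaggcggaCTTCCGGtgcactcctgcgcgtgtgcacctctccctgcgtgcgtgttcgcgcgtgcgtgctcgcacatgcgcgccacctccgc
POM121C: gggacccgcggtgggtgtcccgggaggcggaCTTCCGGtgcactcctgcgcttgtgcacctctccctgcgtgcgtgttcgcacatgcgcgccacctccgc
NUP50: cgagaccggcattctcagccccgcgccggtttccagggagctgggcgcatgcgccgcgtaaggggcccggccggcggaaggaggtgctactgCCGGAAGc
NUP214: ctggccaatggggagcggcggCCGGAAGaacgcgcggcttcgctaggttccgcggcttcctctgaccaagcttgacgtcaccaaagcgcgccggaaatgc
NUP37: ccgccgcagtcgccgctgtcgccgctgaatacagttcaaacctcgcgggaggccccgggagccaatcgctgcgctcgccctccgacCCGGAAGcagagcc
SEC13: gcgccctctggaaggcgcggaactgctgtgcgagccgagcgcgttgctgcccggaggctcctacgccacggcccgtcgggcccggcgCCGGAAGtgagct

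These stretches lie at chr7:72879257-72879356, plus strand (POM121), chr7:75486300-75486399, minus strand (POM121C), chr22:45163825-45163924, plus strand (NUP50), chr9:131125486-131125585, plus strand (NUP214), chr12:102120115-102120214, minus strand (NUP37) and chr3:10321113-10321212, minus strand (SEC13). In SEC13, NUP37 and NUP50 the core sits within 14 bases of the start, and in POM121, POM121C and NUP214 it sits 69 to 83 bases before it. The NRF1 core CATGCGC was found in 5 of 32 promoters (15.6%, against 6.21%), the YY1 site AAGATGGCG in 1 (3.12%, against 0.997%) and the cell cycle element TTTGAA in 6 (18.8%, against 8.5%). The GC box GGGCGG was found in 14 (43.8%, against 66.9%), the CCAAT box in 12 (37.5%, against 34.9%) and the E box CACGTG in 2 (6.25%, against 8.79%). The hypoxia response core GCGTG was found in 18 (56.2%, against 45%). These were 8 of 10 promoters of genes that rose, 2 of 4 that fell, 6 of 16 that did not pass and those of the untested NUP62 and NUP62CL. The near copies POM121 and POM121C are among the 8. For genes that rose, fell and did not pass, the NRF1 core was in 3 of 10, 0 of 4 and 1 of 16. Both near copies, POM121 and POM121C, are among these 3. In the same order the CCAAT box was in 5, 1 and 5, the GC box in 2, 2 and 9 and the cell cycle element in 3, 1 and 2. The E2F sites TTTGGCGC and TTTCCCGC were in none of the 32 windows, against 0.818% and 2.23% of all promoters. GCGTG and CACGTG can share bases, and a match describes letters in a window, not a bound site.

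All 3 genes of the nuclear basket rose, against 23.4% of all genes. TPR, the coiled-coil protein that forms the basket's filaments (ENSG00000047410, chr1:186311652-186375693, minus strand), had 272, 272 and 286 CPM with Supinoxin, against 128, 202 and 187 CPM without it. NUP153, the FG nucleoporin that ties the basket to the nuclear ring (ENSG00000124789, chr6:17615035-17706925, minus strand), had 233, 218 and 228 CPM with Supinoxin, against 116, 166 and 149 CPM without it. NUP50, which binds importin alpha and helps to release cargo (ENSG00000093000, chr22:45163925-45188017, plus strand), had 129.9, 124 and 128 CPM with Supinoxin, against 70.7, 85.1 and 86.1 CPM without it. In each of the 3 the lowest Supinoxin library lay above the highest untreated one, and untreated replicate 1 was the lowest library of all. The rises were 1.6-fold for TPR (log2 fold change 0.68, SE 0.17, adjusted p = 0.0108), 1.58-fold for NUP153 (log2 fold change 0.66, SE 0.15, adjusted p = 0.00683) and 1.58-fold for NUP50 (log2 fold change 0.66, SE 0.13, adjusted p = 0.00292). Their median log2 fold change of 0.66 was 0.53 without untreated replicate 1 and 0.41 with the length and GC offset, and all 3 stayed called under both. Under the offset they were less alike, at 0.33 for TPR, 0.41 for NUP50 and 0.55 for NUP153.

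On the cytoplasmic side 3 of 7 genes rose and none fell, against 23.4% and 25.2% of all genes. With the length and GC offset 2 were higher and 2 lower, against 26.7% and 30.2% of all genes. RANBP2, the giant protein of the cytoplasmic filaments that holds RANGAP1 and has SUMO ligase activity (ENSG00000153201, chr2:108719482-108785810, plus strand), had 109.7, 97.8 and 105 CPM with Supinoxin, against 44.7, 66.4 and 69.4 CPM without it. NUP42, a binding partner of GLE1 (ENSG00000136243, chr7:23181841-23201011, plus strand), had 53, 52 and 48.4 CPM with Supinoxin, against 25.9, 35.4 and 34 CPM without it. Neither gene's groups overlapped. RANBP2 rose 1.73-fold (log2 fold change 0.79, SE 0.17, adjusted p = 0.00529) and NUP42 rose 1.61-fold (log2 fold change 0.69, SE 0.15, adjusted p = 0.00455). Under the length and GC offset RANBP2 stood at a log2 fold change of 0.37 and NUP42 at 0.68.

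NUP214, which docks the export helicase DDX19 and binds the exportin XPO1 (ENSG00000126883, chr9:131125573-131234663, plus strand), had 63, 63.9 and 62.6 CPM with Supinoxin, against 49, 52.2 and 52.4 CPM without it. All 3 Supinoxin libraries lay above all untreated ones, and its rise was small at 1.23-fold (log2 fold change 0.30, SE 0.11, adjusted p = 0.0493). This call was lost in 8 of the 14 alternatives, and with the length and GC offset the log2 fold change was -0.15 (adjusted p 0.0111 to 0.326 over the alternatives). Of RANBP2's 50-base windows 15.3% recur in other genes, 8.47% in RGPD3 of the RANBP2-like RGPD family. RGPD8 had 44 to 55 counts with Supinoxin and 25 to 42 counts without it, and RGPD1 to RGPD6 had at most 18, against 3687 to 4195 counts with Supinoxin and 1508 to 2317 counts without it for RANBP2. For NUP42 the shared windows came to 12.8% and the bases covered by an opposite-strand gene to 13.7%.

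The other 4 cytoplasmic genes did not pass. NUP88, the scaffold partner of NUP214, had 65.9, 67 and 71 CPM with Supinoxin, against 68.4, 86.9 and 87.9 CPM without it, and Supinoxin replicates 1 to 3 straddled untreated replicate 1 while lying below the other two. Its log2 fold change of -0.25 (adjusted p = 0.146, edgeR) became -0.35 without untreated replicate 1 and -0.61 with the length and GC offset, and it passed under both (adjusted p 0.000211 to 0.566 over the alternatives). Opposite-strand genes cover 35.5% of its exonic bases. AAAS, which encodes aladin, had 83.6, 89.1 and 89.6 CPM with Supinoxin, against 158, 111 and 95.1 CPM without it. Its 3 Supinoxin libraries lay below the untreated ones, of which untreated replicate 1 was far the highest, and the log2 fold change was -0.48 (adjusted p = 0.0576, edgeR) with all libraries and -0.23 without that replicate. AAAS passed in 5 of the 14 alternatives (adjusted p 0.00865 to 0.168). GLE1, the activator of DDX19 helicases, had 26.8, 29.3 and 29.1 CPM with Supinoxin, against 19.6, 30.2 and 22.6 CPM without it, and RAE1, an mRNA export factor that binds NUP98, had 51.6, 58.2 and 56 CPM with Supinoxin, against 66.3, 61.2 and 52.4 CPM without it. Both overlapped between the groups, and GLE1 passed without untreated replicate 2 (adjusted p 0.0353 to 0.527 over the alternatives).

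In the central channel NUP98 rose and its neighbours NUP58 and NUP54 did not pass. NUP98 is an FG nucleoporin found on both faces of the pore, and its gene also encodes NUP96 of the Y complex through a precursor that is cut apart (ENSG00000110713, chr11:3671083-3797792, minus strand). It had 182, 181 and 182 CPM with Supinoxin, against 94.4, 114 and 101 CPM without it, with almost no spread among the Supinoxin libraries and no overlap. The rise was 1.76-fold (log2 fold change 0.82, SE 0.13, adjusted p = 0.00104), the smallest adjusted p of the 33 genes, and 0.42 on the log2 scale with the length and GC offset. NUP58 had 148, 129 and 133 CPM with Supinoxin, against 108, 138 and 141 CPM without it and NUP54 had 48, 44.6 and 46.9 CPM with Supinoxin, against 45.5, 46.3 and 55.5 CPM without it, and the groups overlapped in both. With the length and GC offset these log2 fold changes, 0.08 for NUP58 and -0.08 for NUP54, became -0.31 and -0.50 and passed (adjusted p 0.0146 to 0.93 and 0.00334 to 0.912 over the alternatives). NUP62, their partner in the channel, was listed at 0 in all 6 libraries, as were the ribosomal protein genes RPL15 and RPS4X, and was not read as silent; 12.0% of its exonic bases overlap another gene on the same strand. NUP62CL, a NUP62-like gene on chromosome X, had 0 to 8 counts a library and was not tested.

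The inner ring, which shapes the pore membrane and holds the channel, had 1 of 5 genes called, against 48.6% of all genes. With the length and GC offset the ring had 1 gene higher and 2 lower, against 26.7% and 30.2% of all genes. NUP205, one of its large curved scaffold proteins (ENSG00000155561, chr7:135557917-135648757, plus strand), had 339, 342 and 346 CPM with Supinoxin, against 182, 270.2 and 244 CPM without it. The groups did not overlap, and untreated replicate 1 was the lowest by a wide margin. NUP205 rose 1.47-fold (log2 fold change 0.56, SE 0.16, adjusted p = 0.0171), a call lost without any single Supinoxin library (adjusted p 0.0586, 0.0593 and 0.0633, against 0.00156 to 0.0633 over all alternatives). NUP188, its paralogue, had 245, 256 and 262 CPM with Supinoxin, against 215, 219 and 184 CPM without it, and its log2 fold change of 0.30 did not pass (adjusted p = 0.0746, edgeR) although its groups were separate. It passed without untreated replicate 1 and with scaling by library totals (adjusted p 0.0118 to 0.582 over the alternatives).

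NUP155, which contacts the membrane, had 129.5, 126 and 126 CPM with Supinoxin, against 141, 156 and 171 CPM without it. Every Supinoxin library was below every untreated one, but the log2 fold change of -0.29 did not pass (adjusted p = 0.08, edgeR). It passed with DESeq2, without untreated replicate 1 (-0.35) and with the length and GC offset (-0.58; adjusted p 0.00039 to 0.416 over the alternatives). NUP93, which links the inner ring to the channel, had 118, 114 and 122 CPM with Supinoxin, against 132, 126 and 120.3 CPM without it, and NUP35, a membrane-binding member, had 45.8, 41.6 and 41.8 CPM with Supinoxin, against 44.3, 45.7 and 56.3 CPM without it. Both overlapped between the groups, and NUP93 was called lower under the offset alone and the offset with the replicate block (-0.47 with the offset; adjusted p 0.00494 to 0.791 over the alternatives).

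In the fit of all libraries without the offset, most of the falls lay in the Y complex, the outer ring scaffold. Of its 9 genes 4 were lower and 1 higher, against 25.2% and 23.4% of all genes, with a median log2 fold change of 0.06. With the length and GC offset 4 were lower and 1 higher, against 30.2% and 26.7% of all genes. In that fit 11 pore genes were lower, so most of the falls lay outside the Y complex. With scaling by library totals 2 were lower, against 19.7% of all genes, and without any 1 Supinoxin library 2 were lower. NUP85 (ENSG00000125450, chr17:75205659-75235758, plus strand) had 120.0, 127 and 121 CPM with Supinoxin, against 217, 188 and 189.8 CPM without it. SEC13, which also coats COPII vesicles at the endoplasmic reticulum (ENSG00000157020, chr3:10293131-10321112, minus strand), had 110.4, 117 and 114 CPM with Supinoxin, against 211, 164 and 165 CPM without it. In both, Supinoxin libraries lay below all untreated ones, and untreated replicate 1 was the highest. NUP85 was 1.62-fold lower (log2 fold change -0.69, SE 0.12, adjusted p = 0.00198) and SEC13 was 1.58-fold lower (log2 fold change -0.66, SE 0.14, adjusted p = 0.00441).

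NUP37 (ENSG00000075188, chr12:102073103-102120120, minus strand), a WD-repeat protein bound to NUP160, had 39.2, 40.8 and 41.8 CPM with Supinoxin, against 61.9, 51.8 and 55.7 CPM without it. NUP43 (ENSG00000120253, chr6:149724315-149749665, minus strand), a WD-repeat protein on the NUP85 arm, had 118, 112 and 109.6 CPM with Supinoxin, against 181, 119 and 160.4 CPM without it. Neither gene's groups overlapped, but untreated replicate 2 of NUP43 was close to the highest Supinoxin library. NUP37 was 1.39-fold lower (log2 fold change -0.47, SE 0.12, adjusted p = 0.011) and NUP43 was 1.36-fold lower (log2 fold change -0.44, SE 0.16, adjusted p = 0.0496). The NUP37 call was lost with library size alone and without any single Supinoxin library (adjusted p 0.00178 to 0.0695 over the alternatives), and the NUP43 call was lost in 9 of the 14 alternatives (adjusted p 0.00908 to 0.158).

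AHCTF1 alone rose in the Y complex. Its protein, ELYS, binds chromatin and starts pore assembly after mitosis (ENSG00000153207, chr1:246839098-246931948, minus strand). It had 132, 119 and 130.1 CPM with Supinoxin, against 47.3, 80.1 and 86 CPM without it, with no overlap and untreated replicate 1 well below the other untreated libraries. The rise was 1.78-fold (log2 fold change 0.83, SE 0.21, adjusted p = 0.00956), and without untreated replicate 1 the log2 fold change was 0.62. Of its 50-base windows, 43.9% recur elsewhere, nearly all in the pseudogene AHCTF1P1, which was listed at 0. The remaining 4 genes did not pass: NUP160, the hub of the Y, had 152, 142 and 146 CPM with Supinoxin, against 95, 129 and 118 CPM without it, with no overlap and a log2 fold change of 0.37 (adjusted p = 0.0596, edgeR). It passed in 4 of the 14 alternatives (adjusted p 0.0234 to 0.427). The stem proteins NUP133 and NUP107 had log2 fold changes of 0.06 and 0.10, and SEH1L, which pairs with NUP85 and also serves the GATOR complex of amino acid sensing, had 0.12; all 3 overlapped between the groups.

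NUTF2, the soluble carrier that returns RAN to the nucleus (ENSG00000102898, chr16:67846882-67872567, plus strand), had 94.1, 105 and 104 CPM with Supinoxin, against 192, 148 and 158 CPM without it. The Supinoxin libraries lay wholly below. NUTF2 was 1.64-fold lower (log2 fold change -0.71, SE 0.14, adjusted p = 0.00315), the largest fall of the 33 genes, and it was called lower in every alternative setting.

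**Figure D2:**
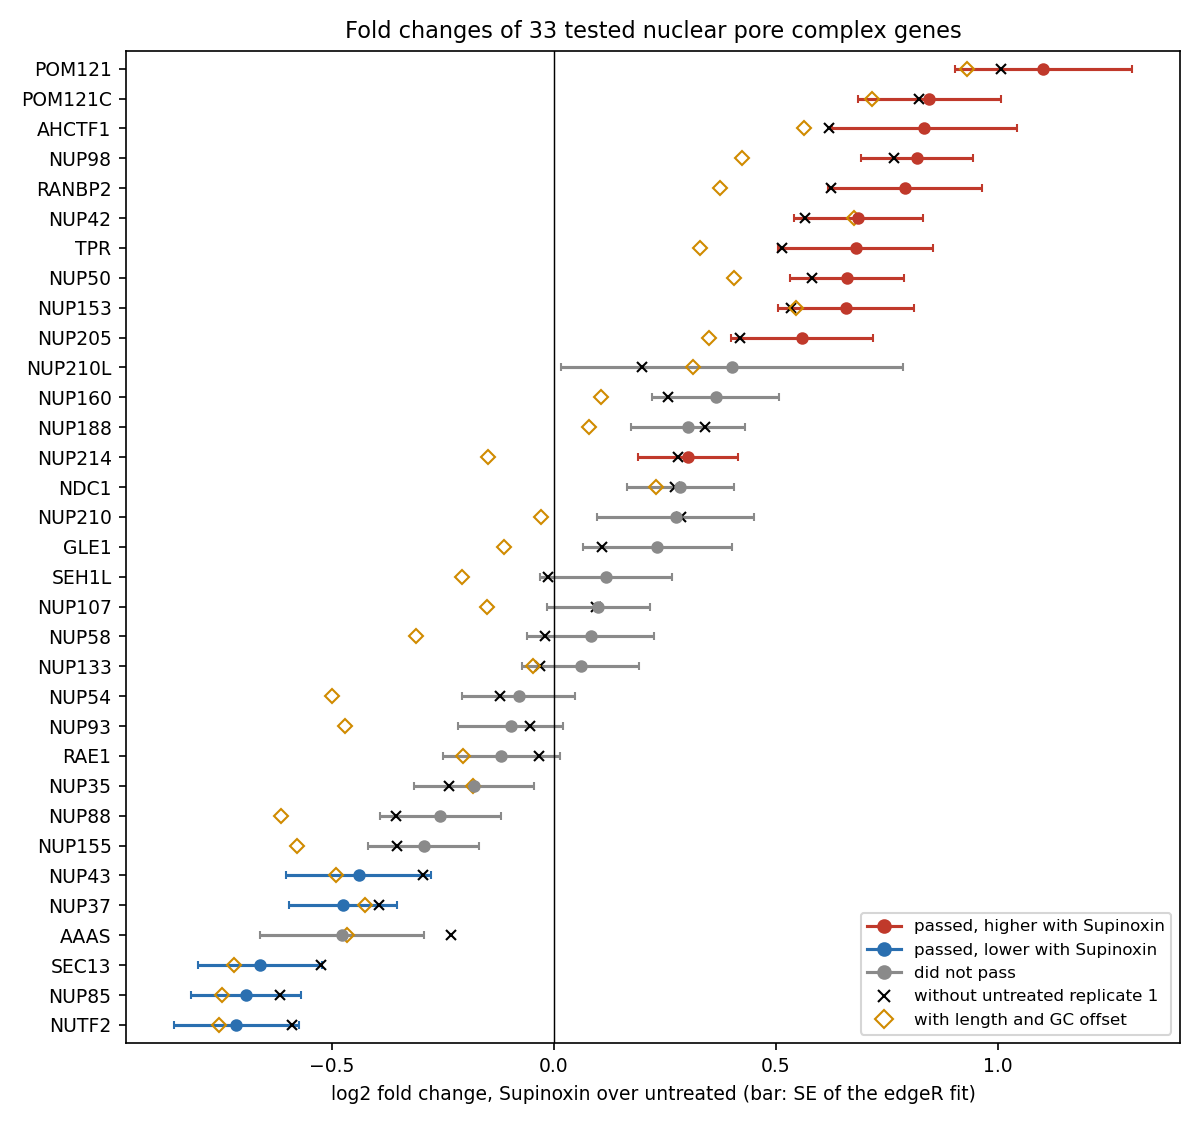
Log2 fold change of the 33 tested nuclear pore genes, Supinoxin over untreated, with the SE of the edgeR fit as the bar; red passed higher, blue passed lower, grey did not pass, crosses leave out untreated replicate 1 and diamonds add the length and GC offset. Under the offset NUP214 lies at -0.15 and NUP98 at 0.42, against 0.30 and 0.82 with all libraries and no offset.

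Grouped by protein class, a grouping made after the values were seen and given as a description, FG members leaned higher and WD-repeat members lower. Of the 11 FG-repeat nucleoporins, the proteins that fill the channel and bind carriers (NUP42, NUP50, NUP54, NUP58, NUP62, NUP98, NUP153, NUP214, RANBP2, POM121 and POM121C), 10 were tested, 8 rose and none fell, against 23.4% and 25.2% of all genes, with a median log2 fold change of 0.67. NUP58 and NUP54 were the 2 that did not pass. Of the 6 WD-repeat members (SEC13, SEH1L, NUP43, NUP37, AAAS and RAE1), 3 fell and none rose, with a median of -0.46, against the same background. Of 8 large scaffold proteins (NUP205, NUP188, NUP160, NUP133, NUP107, NUP85, NUP155 and NUP93) 1 rose (NUP205) and 1 fell (NUP85), with a median of 0.08, again against 23.4% and 25.2%. With the length and GC offset the FG group counted 7 higher and 2 lower (median 0.42) and the WD group 0 higher and 4 lower (median -0.44), against 26.7% and 30.2% of all genes. In the WD group 1 gene was called lower with library size alone or without any single Supinoxin library.

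Fold change and gene length went together among these genes. Spearman's rho between log2 fold change and exonic length was 0.40 over the 33 genes, 0.39 without untreated replicate 1 and 0.15 with the length and GC offset, against 0.26 over the 15926 annotated genes tested, as a description of points that share the same 6 libraries. Among the 17 genes of at least 8236 exonic bases 8 rose and none fell, with a median of 0.30. Among the 16 shorter ones the median was -0.03, with 3 higher and 5 lower. With the offset these medians were -0.03 and -0.17. Length and the WD or FG class cannot be told apart here, since the FG members had a median exonic length of 11415 bases and the WD members one of 5054 bases. Of the FG genes below the median length, NUP153 had a log2 fold change of 0.55 with the offset and 0.66 without it, and NUP42 had 0.68 with it and 0.69 without it. Among all tested FG genes 7 were higher and 2 lower with the offset, the 2 being the longer NUP58 (-0.31) and NUP54 (-0.50). The WD gene SEH1L, at 10481 bases, had -0.21 with the offset and 0.12 without it. Whether the changes follow length or class was not tested.

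**Figure D3:**
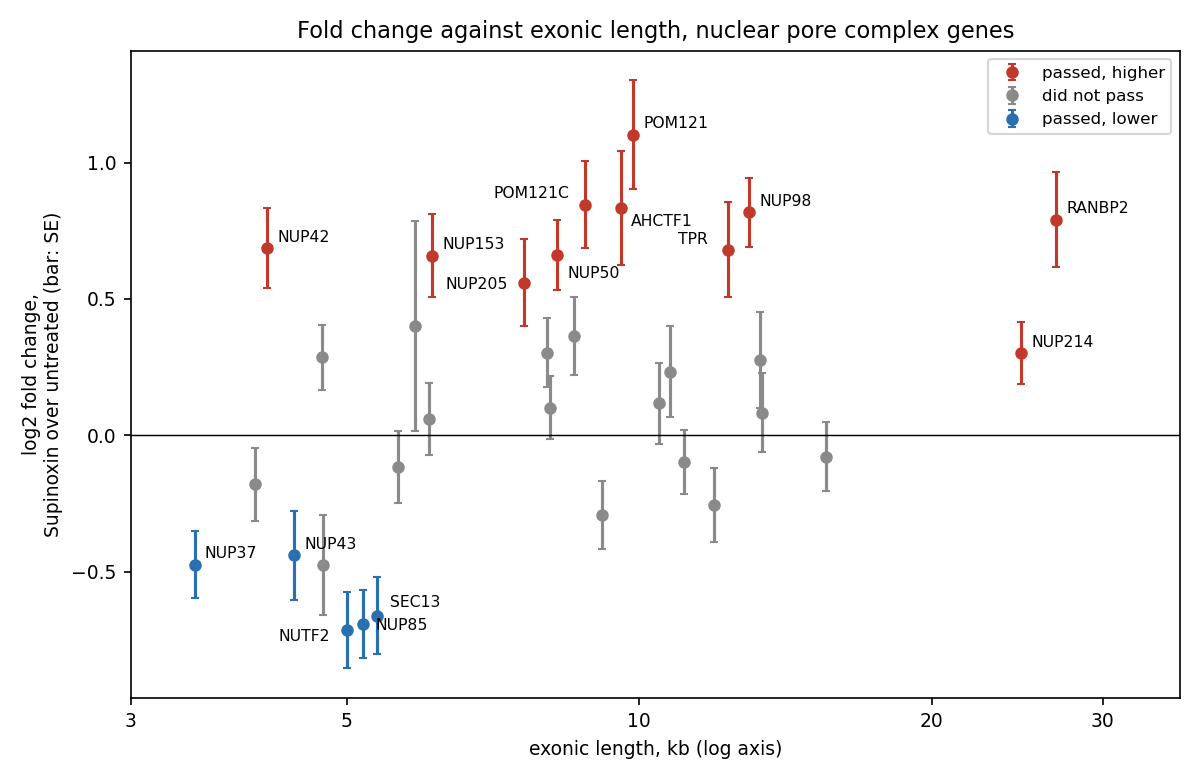
Log2 fold change, Supinoxin over untreated, against exonic length in kb (log axis) for the 33 tested nuclear pore genes, with the SE as the bar; red passed higher, grey did not pass, blue passed lower. The 5 genes that fell are all shorter than the median of 8236 bases, and 8 of the 11 that rose are at or above it.

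Levels per length, as TPM (counts divided by exonic length, then by the library's sum of these) from the same counts, place the genes beside each other. NUP205 stood at 189 ± 4.8 TPM with Supinoxin and 104 ± 31.6 TPM without it (SD, n = 3 each), NUP153 at 156 ± 9.59 TPM with Supinoxin and 80.1 ± 22.9 TPM without it and POM121C at 133 ± 2.91 TPM with Supinoxin and 59.2 ± 15.6 TPM without it, all among the 4 highest of the Supinoxin cells. NUP85 stood at 99.4 ± 3.43 TPM with Supinoxin and 128 ± 7.62 TPM without it, NUP43 at 108 ± 7.77 TPM with Supinoxin and 115 ± 18 TPM without it, SEC13 at 89 ± 2.06 TPM with Supinoxin and 111 ± 1.66 TPM without it and NUTF2 at 85.1 ± 2.66 TPM with Supinoxin and 111 ± 4.82 TPM without it, the first 4 of the untreated cells. In the untreated cells NUP43, SEC13, NUTF2 and NUP205 did not differ beyond their SDs. The low end was NUP210L at 0.784 ± 0.164 TPM with Supinoxin and 0.491 ± 0.314 TPM without it, NUP214 at 10.7 ± 0.382 TPM with Supinoxin and 7 ± 1.16 TPM without it and GLE1 at 11.1 ± 0.211 TPM with Supinoxin and 7.67 ± 2.45 TPM without it. TPM divides by length and by a total that itself moves with length, so its ratio between groups differs from the CPM fold change.

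The partners of the pore were read from 4 lists. Of 27 importins and exportins, the carriers themselves, 26 were tested, 11 rose and 1 fell (42.3% and 3.85%), against 23.4% and 25.2% of all genes, with a median log2 fold change of 0.33. TNPO3, which imports serine-arginine splicing proteins, averaged 236 ± 4.08 CPM with Supinoxin and 145 ± 30.6 CPM without it (SD, n = 3 each; log2 fold change 0.71, SE 0.17, adjusted p = 0.00738, edgeR). XPO5, which exports precursor microRNAs, averaged 41.3 ± 1.55 CPM with Supinoxin and 23.5 ± 7.22 CPM without it (log2 fold change 0.81, SE 0.20, adjusted p = 0.0086). IPO11 averaged 30.6 ± 0.493 CPM with Supinoxin and 39.3 ± 3.46 CPM without it (log2 fold change -0.36, SE 0.12, adjusted p = 0.0345) and lost its call in 6 of 14 alternatives (adjusted p 0.00139 to 0.254). RANBP17, the other carrier named among those lower, had a log2 fold change of -0.42 and did not pass (adjusted p = 0.239, 0.00721 to 0.821 over the alternatives). Leaving out any 1 Supinoxin library left 2 or 3 carriers higher, and with the length and GC offset 7 rose and 4 fell, against 26.7% and 30.2% of all genes.

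In the RAN cycle 4 of 7 tested genes fell and none rose, against 25.2% and 23.4% of all genes (median log2 fold change -0.48); RANGRF was listed at 0. RAN, the GTPase that sets the direction of transport, averaged 752 ± 24.3 CPM with Supinoxin and 1226 ± 112 CPM without it (log2 fold change -0.71, SE 0.13, adjusted p = 0.00202, edgeR). RANBP1, its cytoplasmic cofactor, averaged 186 ± 7.59 CPM with Supinoxin and 361 ± 81.6 CPM without it (log2 fold change -0.95, SE 0.17, adjusted p = 0.00202). RCC1, the exchange factor on chromatin, averaged 253 ± 9.3 CPM with Supinoxin and 234 ± 13.5 CPM without it and RANGAP1, the activating protein held by RANBP2, 319.6 ± 7.21 CPM with Supinoxin and 275 ± 100.2 CPM without it; neither passed, though RANGAP1 was called higher without untreated replicate 1 (log2 fold change 0.57; adjusted p 0.000158 to 0.822 over the alternatives). Without Supinoxin replicate 3 the list had 2 falls. With the length and GC offset 5 genes fell and none rose, against 30.2% and 26.7% of all genes.

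Of 21 mRNA export genes 18 were tested, 3 rose and 8 fell, against 23.4% and 25.2% of all genes (median log2 fold change -0.47). NXT1, the small partner of the export receptor, averaged 22.1 ± 1.03 CPM with Supinoxin and 71.7 ± 23.3 CPM without it (log2 fold change -1.70, SE 0.21, adjusted p = 0.000425, edgeR), the largest fall in the 4 lists. ENY2, a subunit of the TREX-2 complex that tethers mRNA to the pore, averaged 62.2 ± 2.33 CPM with Supinoxin and 103 ± 9.78 CPM without it (log2 fold change -0.73, SE 0.13, adjusted p = 0.00164). MCM3AP, the TREX-2 scaffold, averaged 83.9 ± 0.932 CPM with Supinoxin and 41.9 ± 10.4 CPM without it (log2 fold change 1.00, SE 0.17, adjusted p = 0.00175), and NXF1, the export receptor, 114 ± 5.78 CPM with Supinoxin and 80.2 ± 8.23 CPM without it (log2 fold change 0.50, SE 0.13, adjusted p = 0.0109); the NXF1 call was lost without Supinoxin replicate 2 or 3 (adjusted p 0.000785 to 0.0588 over the alternatives). With the length and GC offset 3 genes of this list rose and 9 fell, against 26.7% and 30.2% of all genes. DDX39B was listed at 0.

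Of 20 genes of the nuclear lamina and envelope 7 rose and 2 fell, against 23.4% and 25.2% of all genes (median log2 fold change 0.22). LBR, the lamin B receptor, averaged 420.5 ± 30.4 CPM with Supinoxin and 190.4 ± 28.7 CPM without it (log2 fold change 1.14, SE 0.15, adjusted p = 0.000512, edgeR), and SUN2, which links the envelope to the cytoskeleton, 24.8 ± 1.54 CPM with Supinoxin and 8.66 ± 4.06 CPM without it (log2 fold change 1.51, SE 0.29, adjusted p = 0.00278). EMD, which encodes emerin, averaged 121 ± 4.15 CPM with Supinoxin and 231 ± 79.1 CPM without it (log2 fold change -0.93, SE 0.22, adjusted p = 0.00677), and BANF1, its DNA-bridging partner, 221 ± 7.37 CPM with Supinoxin and 406 ± 142 CPM without it (log2 fold change -0.88, SE 0.22, adjusted p = 0.00922). Without Supinoxin replicate 1, 2 or 3 the list had 4, 3 and 3 rises. Over the 4 lists together 21 of 71 tested genes rose and 15 fell (29.6% and 21.1%), which lies near the background of 23.4% and 25.2% of all genes.

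**Figure D4:**
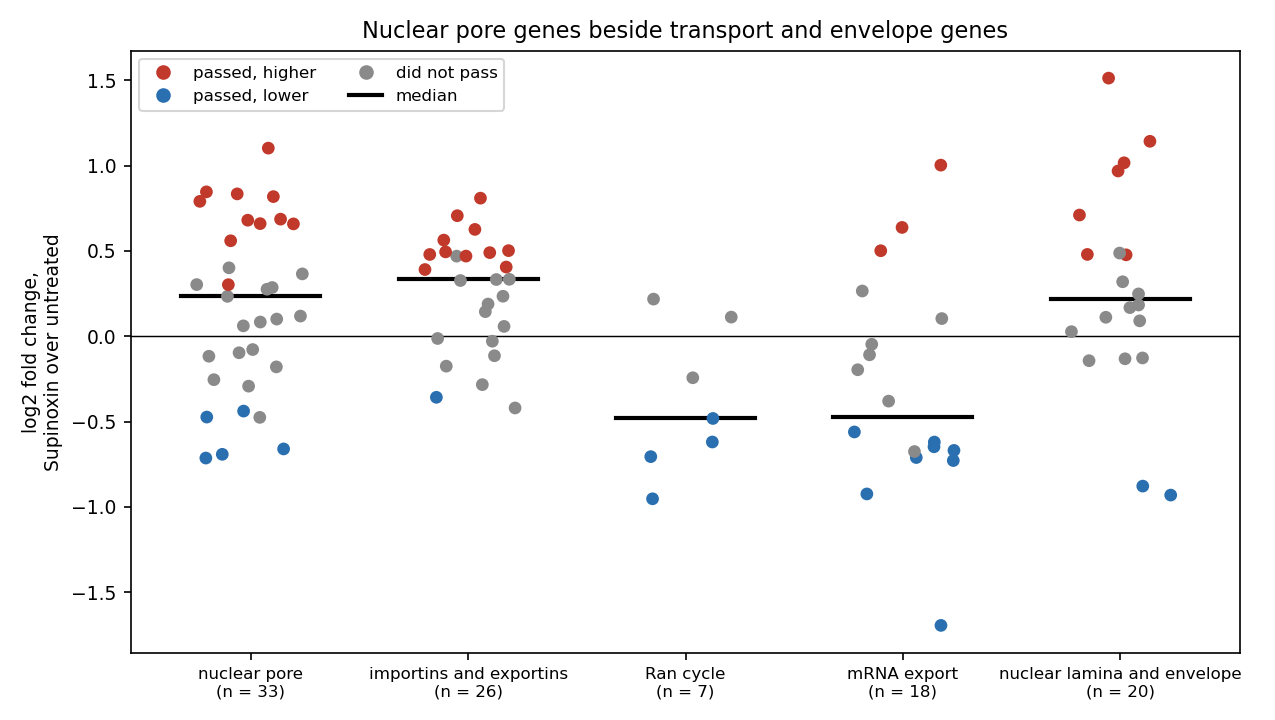
Log2 fold change, Supinoxin over untreated, of each tested gene among the nuclear pore genes and the 4 lists of transport and envelope genes; each dot is a gene, red passed higher, blue passed lower, grey did not pass, and the bar is the median. Medians are 0.23, 0.33, -0.48, -0.47 and 0.22 from left to right.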

How the data were processed

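RNA of H69AR cells was sequenced in 6 libraries, 3 per group. The authors deposited whole-number counts per Ensembl gene with no normalization, and columns were matched to samples by name, those named WT being taken as untreated because the others name Supinoxin, although the genotype label of both groups begins with WT. The submitters' processing notes list, without roles, the build GRCh38 and the tools STAR, featureCounts, fastp, Trim Galore 0.4.4, edgeR and DESeq2. For the annotation release, strandedness and multi-mapping reads the setting is not stated, so overlapping, antisense and near-identical genes can share or lose reads.

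GENCODE 44 named 60463 of 60605 identifiers (142 did not match) and gave positions, exonic lengths and GC content. No count was listed for 33729 identifiers. In R 4.3.3 with edgeR 4.0.16, filterByExpr left 15947 genes, libraries were scaled by TMM, and groups were compared with the two-sided robust quasi-likelihood test with group as the single term. P-values were Benjamini-Hochberg adjusted over all genes tested, threshold 0.05. Adjusted p-values in the text come from this test unless DESeq2 or another alternative setting is named. Ranges over the alternatives come from the settings listed below. The procedure was tested on simulated counts, drawn without any shift between libraries by length or GC content. That test therefore does not cover the shift of untreated replicate 1. Alternatives were relative log expression scaling, library size alone, DESeq2 1.42.0, no filter on low counts, a filter of 1 CPM in 3 libraries, leaving out each library, a replicate block, an offset for length and GC content, and the block with the offset. Sharing of reads was judged by exact 50-base windows of annotated transcripts. Text names every pore gene, with full statistics for the largest changes in each subcomplex, and in each transport list the 2 genes with the smallest p in each direction. The members, lists and protein classes were chosen with earlier results of these data known.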

Additional observations from a re-analysis of the deposited data

How the results depend on the processing

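Of the 33 tested pore genes 18 stayed on their side of the threshold under all 14 alternatives and 15 did not under at least 1; among the 18, the values of NUP133, NUP107, SEH1L, RAE1 and NUP210, which never passed, changed sign in some. The count of genes that rose was 9 to 14 when 1 library was left out and the count that fell was 3 to 6, each loss to 3 following from leaving out a Supinoxin library. The count that fell was 3 with library size alone, 11 with the length and GC offset and 11 with the offset and the replicate block; the cause was not tested. Over the 4 transport and envelope lists, leaving out 1 library gave 6 to 26 genes higher and 10 to 19 lower. Over all genes it gave 2556 to 4334 higher and 2789 to 4477 lower. With the offset, and with the offset and block together, the median log2 fold change was -0.21 and -0.21 for the Y complex, -0.31 and -0.31 for the central channel, -0.15 and -0.14 for the cytoplasmic side and 0.41 and 0.41 for the basket. With library size alone it was 0.045 for the inner ring, 0.21 for the central channel and 0.36 for the cytoplasmic side. Leaving out 1 library gave 0.11 to 0.32 for the cytoplasmic side and 0.29 to 0.72 for the membrane genes. NUP58 turned to -0.31 with the offset and -0.31 with offset and block, and NUP214 turned to -0.15 and -0.14.

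Libraries share replicate numbers across groups, but the labels tie them to nothing, and deviations of same-numbered libraries correlated at -0.13, -0.04 and -0.03, with 0 of 3 Supinoxin libraries correlating best with their own number. The replicate block gave 10 higher and 4 lower pore genes, 21 higher and 15 lower genes in the transport and envelope lists, and 3588 higher and 3650 lower genes in all; NUP43 and NUP214 lost their calls under it. NUP210L had 19 to 46 counts a library, the fewest of the tested genes, and NUP62, listed at 0, could not be assessed.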
